A study of Mus musculus with 4 samples.

Results

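Promoter-class H3K36me3 peaks are the called peaks whose midpoint lay within 1 kb of an annotated transcript start of a protein-coding gene (GENCODE M21, GRCm38, chromosomes 1 to 19). They numbered 535 of 2722 peaks (19.7%, 95% CI 18.2 to 21.2) in the Setd2-KO list and 2518 of 12198 peaks (20.6%, 95% CI 19.9 to 21.4) in the control list. A peak was placed at the outermost start when its midpoint lay within 1 kb of the most upstream start of any coding gene, and otherwise at an internal start, an alternative start further down a gene. By this rule 31 Setd2-KO and 83 control peaks lay at an outermost start, and 504 Setd2-KO and 2435 control peaks lay at internal starts only. With all annotated transcripts the outermost start took 5.79% (95% CI 4.11 to 8.11) of the promoter class in the Setd2-KO list and 3.30% (95% CI 2.67 to 4.07) in the control list, and internal starts held the rest. This split depended on the transcripts counted. With only the GENCODE basic set, the representative transcripts of each gene, the class shrank to 86 Setd2-KO and 171 control peaks, of which 33.7% (95% CI 24.6 to 44.2) and 45.6% (95% CI 38.3 to 53.1) lay at an outermost start.

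The peaks came from ChIP-seq of primary renal tubular epithelial cells (PTECs) taken from the kidney cortex of C57BL/6 mice. Setd2-KO PTECs carried the genotype SETD2fl/fl KspCre/+, that is, floxed Setd2 alleles with Cre under the kidney-specific Ksp promoter, which is active in tubular epithelium. Control PTECs carried the same floxed alleles (SETD2fl/fl) without Cre. The lists bear on where H3K36me3 depends on Setd2 in the tubule. There was 1 ChIP library with its own input library for either genotype, so all differences compare 2 ChIP libraries, no p-value is given, and every 95% CI is a Wilson interval that covers counting error only. The intervals treat the peaks of 1 gene as if they were independent. The labels give no age, number of animals or floxed exons. The reporting summary of the study is not uniform on the material of this ChIP-seq. Its replicate entry gives kidney cysts of a single mouse that overexpressed c-MYC under the Ksp promoter. Beside it stand neoplastic masses of a single mouse that overexpressed c-MYC and also lacked Setd2. Its data quality entry instead names Setd2-KO PTECs and control PTECs, as the labels do. Mice of the multi-omics work were 20 weeks old. The genotypes given here are those of the labels, and whether the libraries also carried the MYC transgene could not be settled.

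SETD2 travels with elongating RNA polymerase II and trimethylates lysine 36 of histone H3 along transcribed genes. The mark is known to be low at active promoters and to increase toward the 3′ end of the gene. Many annotated starts of coding genes belong to transcripts that are not translated, among them retained-intron, nonsense-mediated-decay and processed transcripts. Such starts can lie far inside a transcribed gene, so a peak near one of them can be gene-body signal by position.

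For each kind of start, a strong control peak that a Setd2-KO peak overlapped and the strongest one that none overlapped are shown by 300 bases around the summit, to show the kind of sequence under these peaks. All are from GRCm38, read 5′ to 3′ on the gene's own strand, in lower case with CpG dinucleotides in capitals. The first lies on the plus strand at chr2:26586146-26586445, in an intron of Egfl7 and upstream of the outermost start of Gm20532, under the control peak of the second highest fold enrichment in its group. The second lies on the minus strand at chr15:66969170-66969469, in the first part of Ndrg1. The third lies on the plus strand at chr13:55400724-55401023 in Slc34a1, and the fourth on the minus strand at chr9:44801433-44801732 in Ttc36.
outermost start, called in both lists, Egfl7 and Gm20532: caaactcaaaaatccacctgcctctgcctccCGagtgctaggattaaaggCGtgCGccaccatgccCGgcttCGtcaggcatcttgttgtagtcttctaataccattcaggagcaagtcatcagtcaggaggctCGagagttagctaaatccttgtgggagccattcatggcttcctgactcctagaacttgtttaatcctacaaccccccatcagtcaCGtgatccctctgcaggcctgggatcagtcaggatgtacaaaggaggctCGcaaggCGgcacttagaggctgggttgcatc
outermost start, called in control only, Ndrg1: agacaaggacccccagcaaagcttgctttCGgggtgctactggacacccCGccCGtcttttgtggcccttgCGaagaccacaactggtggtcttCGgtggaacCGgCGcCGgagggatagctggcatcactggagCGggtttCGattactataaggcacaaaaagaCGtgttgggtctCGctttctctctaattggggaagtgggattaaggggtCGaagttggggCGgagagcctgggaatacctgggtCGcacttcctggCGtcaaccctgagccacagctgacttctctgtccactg
internal start, called in both lists, Slc34a1: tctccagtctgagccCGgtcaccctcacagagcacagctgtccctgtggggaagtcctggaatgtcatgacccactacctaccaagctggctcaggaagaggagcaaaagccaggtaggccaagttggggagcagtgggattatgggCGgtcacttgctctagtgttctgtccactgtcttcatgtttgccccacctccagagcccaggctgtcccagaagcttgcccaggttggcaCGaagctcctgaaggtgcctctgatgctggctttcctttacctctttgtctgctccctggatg
internal start, called in control only, Ttc36: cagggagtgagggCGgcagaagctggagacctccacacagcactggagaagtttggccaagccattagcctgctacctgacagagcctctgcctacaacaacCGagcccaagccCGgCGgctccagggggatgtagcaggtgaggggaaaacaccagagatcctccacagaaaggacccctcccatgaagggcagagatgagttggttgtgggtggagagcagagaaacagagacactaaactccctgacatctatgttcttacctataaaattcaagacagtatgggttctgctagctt
The Ndrg1 stretch held 16 CpG dinucleotides, against 9 in Egfl7, 3 in Slc34a1 and 4 in Ttc36. Its observed to expected CpG ratio was 0.655, against 0.435, 0.123 and 0.184 in the same order. CpG-rich sequence is usual at mammalian promoters, and the Ndrg1 stretch was the richest of these 4. The Slc34a1 and Ttc36 stretches held 213 and 139 coding bases, and the other stretches held none.

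The number of called peaks was lower in Setd2-KO PTECs at both kinds of start. The Setd2-KO to control ratio was 0.207 at internal starts (504 against 2435 peaks) and 0.373 at outermost starts (31 against 83 peaks). With GENCODE basic transcripts the order turned, to 0.613 at internal starts (57 against 93 peaks) and 0.372 at outermost starts (29 against 78 peaks). Over the promoter class it was 0.212, and over the peaks further than 1 kb from every start it was 0.226 (2187 against 9680). In covered length the ratio was 0.178 at internal starts, 0.320 at outermost starts and 0.235 away from starts. Setd2 itself had 0 Setd2-KO peaks and 3 internal-start control peaks with fold enrichments of 3.64, 4.52 and 4.09, and no peak at its outermost start. The genome-wide background pileup, which follows library depth, was 6.54 fragments in the Setd2-KO library and 6.58 in the control library. The lists had nearly the same weakest −log10 q, 3.08 in Setd2-KO and 3.09 in control.

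With all annotated transcripts the sharing of sites between the lists also differed by kind of start. An overlap of 1 bp or more counted as sharing. Of all Setd2-KO peaks, 61.1% overlapped a control peak, and of all control peaks, 12.9% were overlapped by a Setd2-KO peak. At outermost starts 29 of 31 Setd2-KO peaks overlapped a control peak (93.5%, 95% CI 79.3 to 98.2), against 332 of 504 at internal starts (65.9%, 95% CI 61.6 to 69.9) and 59.6% away from starts. Of those 29 peaks, 23 faced a control peak that was itself at an outermost start, 2 faced one at an internal start and 4 faced one further than 1 kb from any start. Nearly all Setd2-KO peaks at outermost starts thus had a control counterpart. Seen from the control list, at internal starts 316 of 2435 control peaks were still called (13.0%, 95% CI 11.7 to 14.4), close to the share over all control peaks. At outermost starts 26 of 83 were still called (31.3%, 95% CI 22.4 to 41.9). With GENCODE basic transcripts this order turned, with 34.4% (95% CI 25.5 to 44.5) of 93 internal-start and 30.8% (95% CI 21.6 to 41.7) of 78 outermost-start control peaks still called. From the Setd2-KO list the order stayed, at 93.1% of 29 outermost-start and 80.7% of 57 internal-start peaks.

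**Figure D1:**
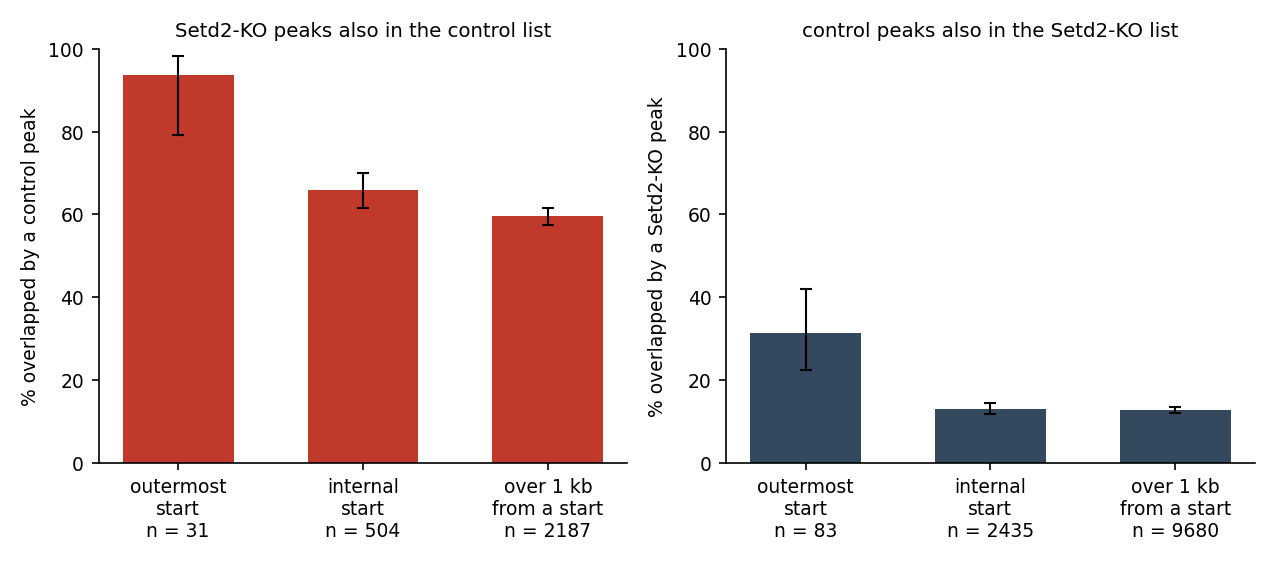
Share of peaks that overlap the other list by at least 1 bp (%, y axis) by kind of start (x axis), for Setd2-KO peaks on the left and control peaks on the right, with 95% Wilson intervals as bars. Peaks at outermost starts stand highest in both panels (93.5% of 31 Setd2-KO peaks and 31.3% of 83 control peaks), while internal starts at 65.9% and 13.0% lie near the peaks further than 1 kb from a start.

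Loci of very high local background held part of the shared outermost-start peaks. A group of 8 Setd2-KO and 10 control outermost-start peaks sat where the local background was far above the genome-wide value, by 63.0 to 115116 times in the Setd2-KO list and 61.3 to 99820 times in the control list. They were named for predicted genes on chromosome 9 near 3 Mb, on chromosome 2 and on chromosome 14 (Gm10715, Gm10717, Gm10719, Gm10720, Gm10722, Gm17535, Gm10800, Gm10801 and Gm21738, chosen after their values were seen). All 8 Setd2-KO peaks of the group overlapped control peaks, and 8 of the 10 control peaks were still called. Their fold enrichment was low, with a median of 1.47 in Setd2-KO and 2.06 in control PTECs. Without peaks at such background, 21 of 23 Setd2-KO outermost-start peaks overlapped a control peak (91.3%, 95% CI 73.2 to 97.6). From the control list, 18 of 73 peaks at outermost starts were still called (24.7%, 95% CI 16.2 to 35.6), against 307 of 2418 at internal starts (12.7%, 95% CI 11.4 to 14.1). The intervals still did not overlap, though they treat the peaks of 1 gene as independent. Of these 73 peaks, 43 lay inside another coding gene, and 12 of those were still called. Only in their own gene lay 27, with 5 still called, and in no coding gene 3, with 1 still called. No interval was computed for the own-gene peaks alone.

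The median fold enrichment of the peaks that were called was similar in both lists and at both kinds of start. Both lists kept only peaks past nearly the same −log10 q, so these medians say little about signal under that limit. The median fold enrichment at the summit was 3.88 in Setd2-KO and 3.96 in control PTECs at outermost starts, and 3.85 and 3.83 at internal starts, against 3.85 and 3.83 over all peaks of each list. The median −log10 q at outermost starts was 9.10 in Setd2-KO and 9.0 in control, above the medians at internal starts of 6.78 and 6.84. The strongest peaks were in the control list. A fold enrichment of at least 5 was reached by 3 outermost-start and 23 internal-start peaks in Setd2-KO, against 13 and 125 in control. The highest fold enrichment in the class was 6.89 in Setd2-KO and 12 in control PTECs, both in Slc34a1. Peaks were also shorter in the Setd2-KO list, with median lengths of 417 bp against 507 bp at outermost starts and 371 bp against 422 bp at internal starts.

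**Figure D2:**
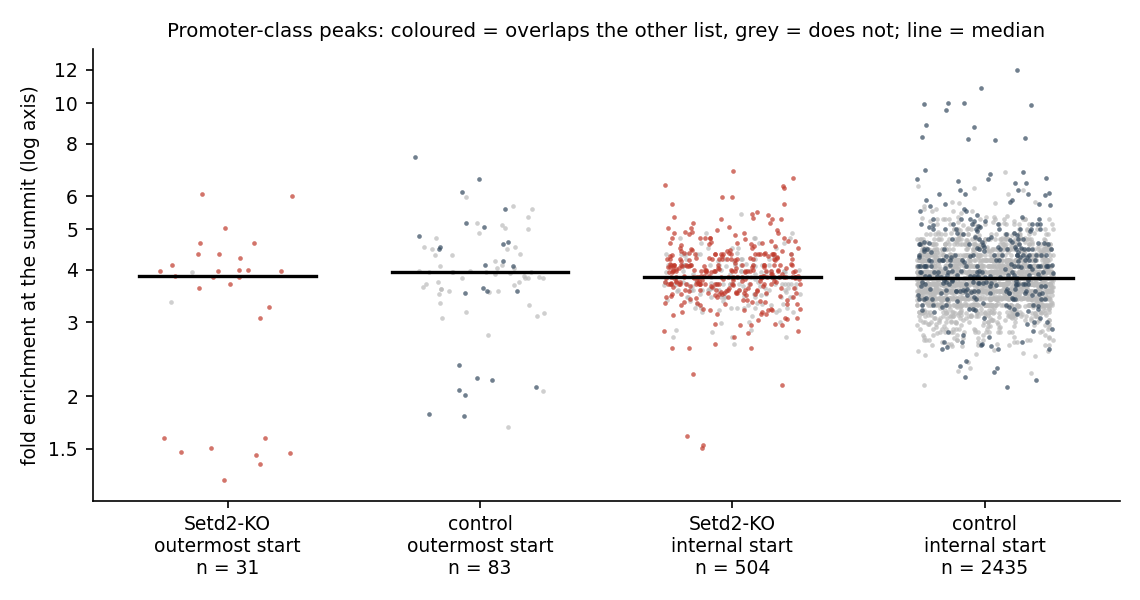
Fold enrichment at the summit (y axis, log scale) of every promoter-class peak, by list and kind of start (x axis); coloured points overlap the other list, grey points do not, and lines are medians. The medians lie between 3.83 and 3.96 in all 4 groups, the points above 8 are all internal-start control peaks, and the cluster near 1.5 among the Setd2-KO peaks at outermost starts holds the peaks at high local background.

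Where both lists had a peak, the Setd2-KO peak was the weaker one at most outermost starts. Among 26 control peaks at outermost starts with a Setd2-KO peak over them, the fold enrichment was lower in Setd2-KO at 20 (76.9%, 95% CI 57.9 to 89.0). The median Setd2-KO to control ratio of fold enrichment was 0.803 (quartiles 0.703 and 0.934). At internal starts it was lower in Setd2-KO at 189 of 316 pairs (59.8%, 95% CI 54.3 to 65.1), with a median ratio of 0.947, and away from starts the median ratio was 0.963 over 1232 pairs. The 8 peaks at high local background, all lower in Setd2-KO, are among the 26. Without them the fold enrichment was lower in Setd2-KO at 12 of 18 pairs (66.7%, 95% CI 43.7 to 83.7), with a median ratio of 0.865. A list that keeps only peaks past a limit shows no pair whose Setd2-KO signal lay under that limit.

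**Figure D3:**
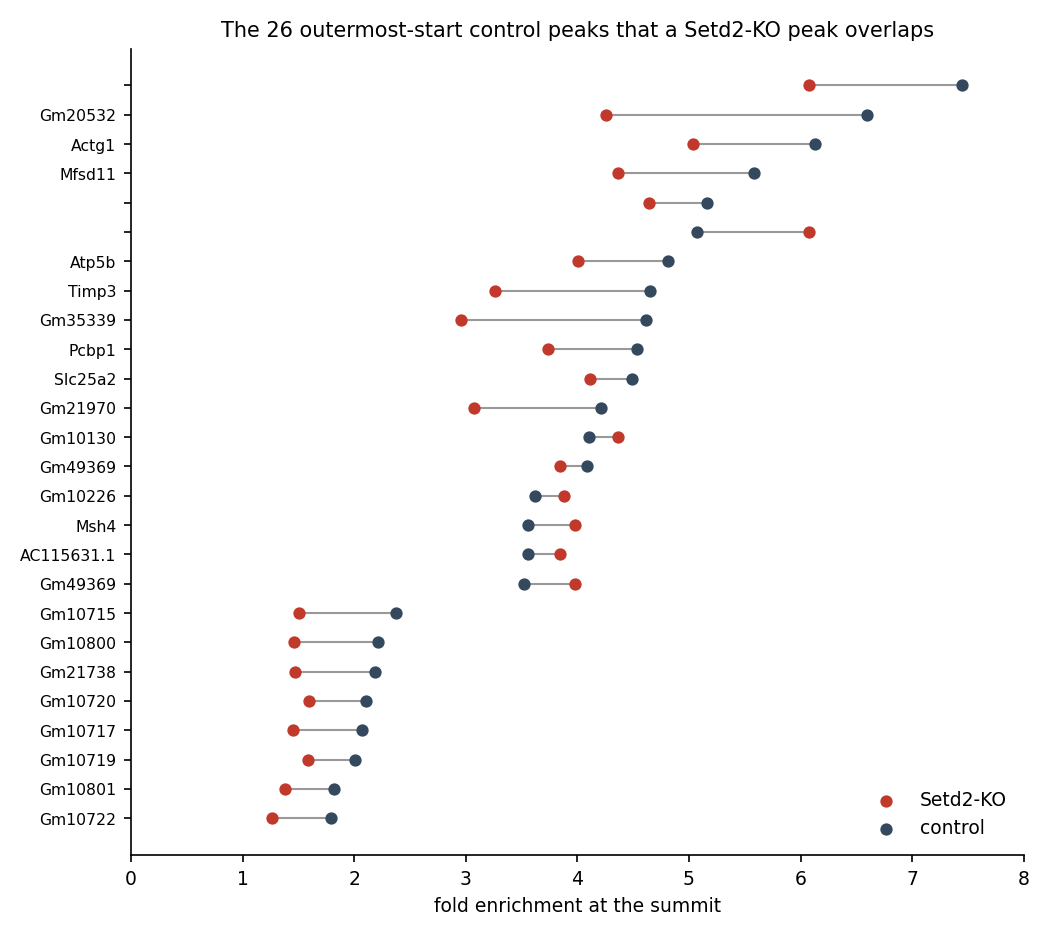
Fold enrichment at the summit (x axis) of the 26 outermost-start control peaks that a Setd2-KO peak overlaps, 1 row per control peak named for the gene of its start except in 3 rows, with the strongest overlapping Setd2-KO peak in red and the control peak in dark blue. The Setd2-KO value is the lower one in 20 of 26 rows, and the bottom 8 rows, with Setd2-KO values of at most 1.59, are the loci at high local background.

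The strongest control peaks were still called more often than the others at internal starts, as they were away from starts. Control peaks were cut into 5 groups of similar size by fold enrichment over the whole list. In the strongest group 129 of 481 internal-start peaks were still called (26.8%, 95% CI 23.1 to 31.0), beside 28.7% of 1931 peaks away from starts. The other groups showed no steady order: from the weakest up, the shares were 10.2, 8.02, 9.40 and 10.9% at internal starts, beside 8.99, 6.67, 7.92 and 12% away from starts. At matched strength the internal-start share lay close to that of the peaks away from starts. At outermost starts the strongest group had 11 of 28 still called (39.3%, 95% CI 23.6 to 57.6), and the groups below it, from the weakest up, had 8 of 17, 4 of 13, 0 of 15 and 3 of 10. All 8 still called in the weakest group were peaks at high local background, and none of its other peaks was still called. The higher outermost share was thus not seen in the middle group, where 0 of 15 allows a share of up to 20.4% by the same interval. Without those loci it was not seen in the weakest group either.

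The 31 Setd2-KO peaks at outermost starts fall into 4 sets. Besides the 8 peaks at high local background, 10 lay only in the gene whose start named them, 11 lay inside another coding gene, and 2 lay in no coding gene. The first set includes Rsrp1, Actg1, Pck1, Eif1, Atp5b, Msh4, Id3, Zfp869 and Mcl1. Of its 10 peaks, 9 overlapped a control peak, beside 61.1% of all Setd2-KO peaks. Most genes of this set were short, with a median length of 4.39 kb and 8 of 10 under 10 kb, so that 1 kb is a large part of the body.

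Among this first set, Rsrp1, which encodes an arginine- and serine-rich protein, had the strongest peak, with a fold enrichment of 6.01 in Setd2-KO PTECs (chromosome 4, 134923890 to 134924557, in coding sequence). In control PTECs that site lay inside a longer peak of fold enrichment 9.99 (134923807 to 134925945) whose midpoint lay over 1 kb from the outermost start and near an internal one. Actg1, the gene of cytoplasmic gamma-actin, had a fold enrichment of 5.04 in Setd2-KO (chromosome 11, 120347344 to 120348360) and 6.13 in control PTECs (120347282 to 120348378), over nearly the same bases. Pck1 encodes the cytosolic phosphoenolpyruvate carboxykinase of gluconeogenesis, a pathway of the proximal tubule. Its first Setd2-KO peak (chromosome 2, 173153400 to 173153964) had a fold enrichment of 4.65. The control peak over it (173153383 to 173156489) had a fold enrichment of 8.31 and began at the same place, but at 3107 bp its midpoint lay beyond 1 kb. Rsrp1 and Pck1 therefore entered the outermost set of the Setd2-KO list alone, because the shorter Setd2-KO peak had its midpoint closer to the start.

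Atp5b encodes the beta subunit of mitochondrial ATP synthase, and its outermost-start peak had a fold enrichment of 4.01 in Setd2-KO and 4.82 in control PTECs. At Actg1 and Atp5b the start region was thus called in both genotypes. The only outermost-start Setd2-KO peaks with no control counterpart were those of Id3, an inhibitor of helix-loop-helix transcription factors (fold enrichment 3.95, chromosome 4, 136144297 to 136144621), and Fcer1g, the gamma chain of immune Fc receptors (3.36, chromosome 1, 171234416 to 171234726). The Fcer1g peak lay upstream of its gene and in no coding gene. A second Id3 peak, at an internal start, had a fold enrichment of 3.97 and no control counterpart.

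The 11 Setd2-KO peaks inside another coding gene were named for genes that include Mfsd11, Gm10130, Gm20532, Slc25a2, Gm49369, AC115631.1, Timp3 and Gm21970, where Gm10130 and AC115631.1 had 2 peaks each. In 8 of the 11 the naming gene had a predicted-gene or clone symbol. All 11 overlapped a control peak, beside 61.1% of all Setd2-KO peaks. By position these are places where the start of 1 annotated gene falls within the body of another. The peak at Gm20532, inside the vascular gene Egfl7, had a fold enrichment of 4.26 in Setd2-KO and 6.60 in control PTECs.

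The control list held 83 outermost-start peaks, of which 10 were at high local background, 27 lay only in their own gene, 43 lay inside another coding gene and 3 in no coding gene. In the 27 peaks of the own-gene set, 5 were still called in Setd2-KO PTECs, those at Actg1, Atp5b, Pcbp1 and Msh4 among them. Split by gene length, 3 of 9 in genes under 10 kb and 2 of 18 in longer genes were still called. In the 43 peaks inside another gene, 12 were still called, and 27 of the 43 carried a predicted-gene, Rik or clone symbol. Over all control peaks the share still called was 12.9%. Of the 26 outermost-start control peaks still called, 8 were at high local background and 12 inside another gene. At 13 of the 73 control peaks away from high local background, the midpoint was also within 1 kb of an internal start of another gene.

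The 22 own-gene control peaks with no Setd2-KO peak lay at Ndrg1, Cpeb4, Yy1, 1810013L24Rik, Eif4a1, Nr1d1, Jund, Klf9, Hnrnpu, Sfpq, Keg1, Pank1, Igfbp4, Ppp2ca, Actb, Cyp4b1, Kap, Hnrnpul2, Rpl7a, Ass1 and Slc22a5, with 2 at Klf9. Ndrg1, a gene induced by low oxygen and stress, had the strongest, with a fold enrichment of 5.98 (chromosome 15, 66968894 to 66969557, in an intron). The gene held 0 Setd2-KO peaks and 17 control peaks along its body, so neither its start region nor its body was called in Setd2-KO PTECs. Cpeb4, a regulator of cytoplasmic polyadenylation, followed at 5.68 (chromosome 11, 31872411 to 31873585). Yy1, a zinc finger transcription factor, had a fold enrichment of 5.36 (chromosome 12, 108793638 to 108794019) and 1810013L24Rik 5.17 (chromosome 16, 8830424 to 8830965). The strongest such peak inside another gene was named for Gm9887 and lay in Arf6, at 5.59 (chromosome 12, 69372744 to 69373687).

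**Figure D4:**
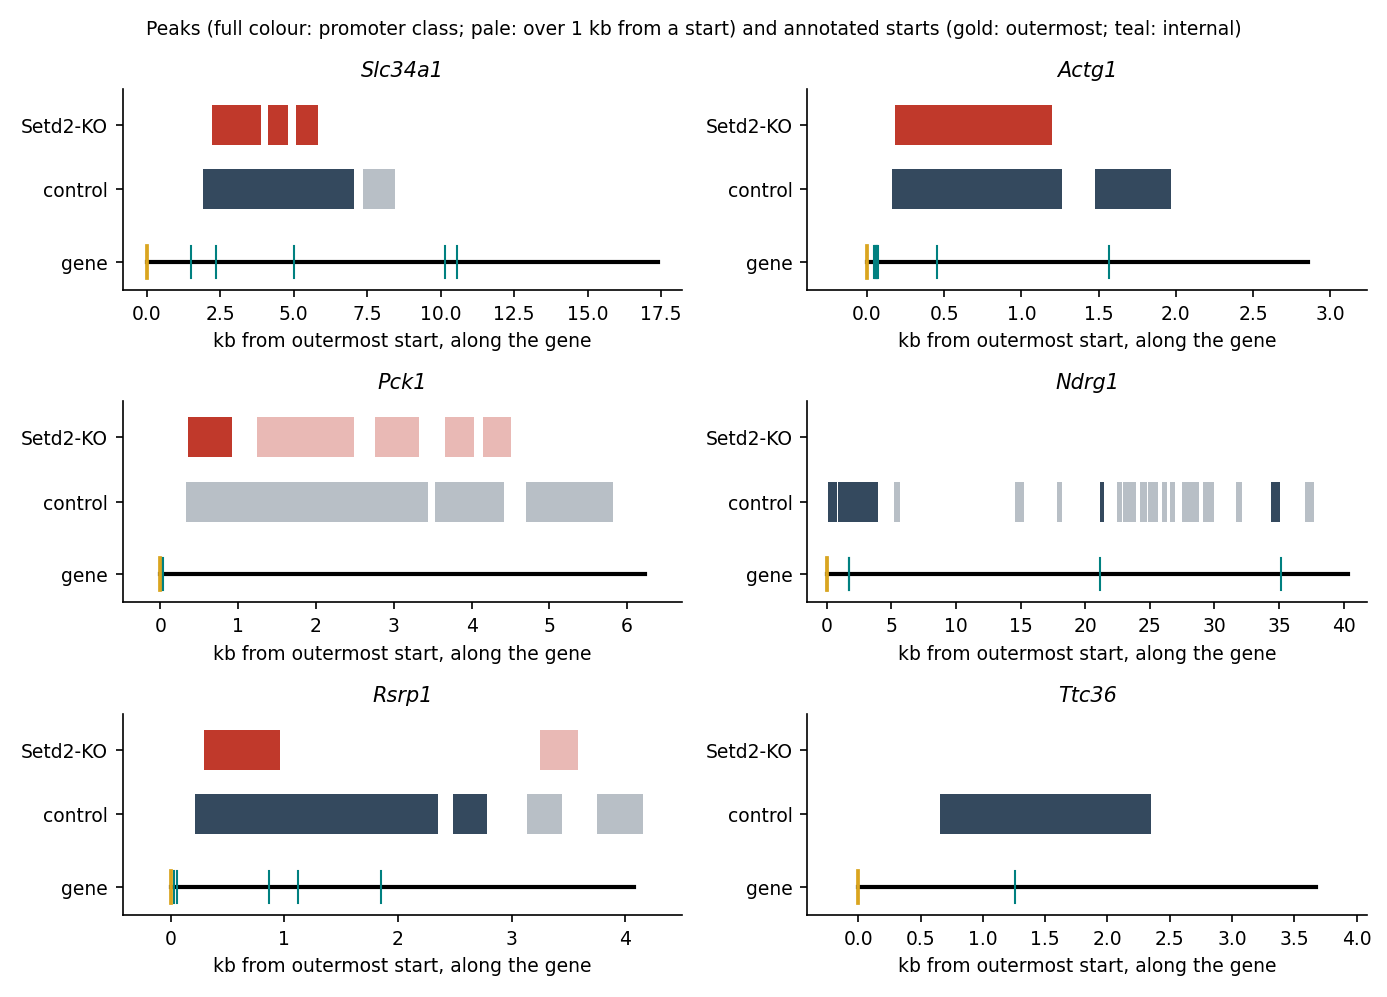
Called peaks in 6 genes, plotted by distance from the outermost start along the gene (kb, x axis) with Setd2-KO peaks in the upper row, control peaks in the middle row and annotated starts in the lower row (gold outermost, teal internal). Full colour marks promoter-class peaks and pale colour peaks further than 1 kb from a start; Pck1 and Rsrp1 show a short Setd2-KO peak inside a longer control peak, and Ndrg1 and Ttc36 have no Setd2-KO peak.

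Most outermost-start peaks lay on the gene side of the start. Their midpoint was downstream of the start at 21 of 31 Setd2-KO peaks and 55 of 83 control peaks, and within 250 bp of it at 7 and 15. Around the outermost starts of the 4281 genes with a control peak anywhere, peaks per 1000 genes in steps of 500 bp were 0.70 in Setd2-KO and 1.87 in control PTECs just upstream, and 2.34 and 5.14 just downstream. They reached 6.09 in Setd2-KO and 12.4 in control at 1 to 1.5 kb. Both lists thus had few peaks at the start and more along the gene. Those genes were chosen for a control peak, so the levels of the lists in this profile are not comparable with each other.

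**Figure D5:**
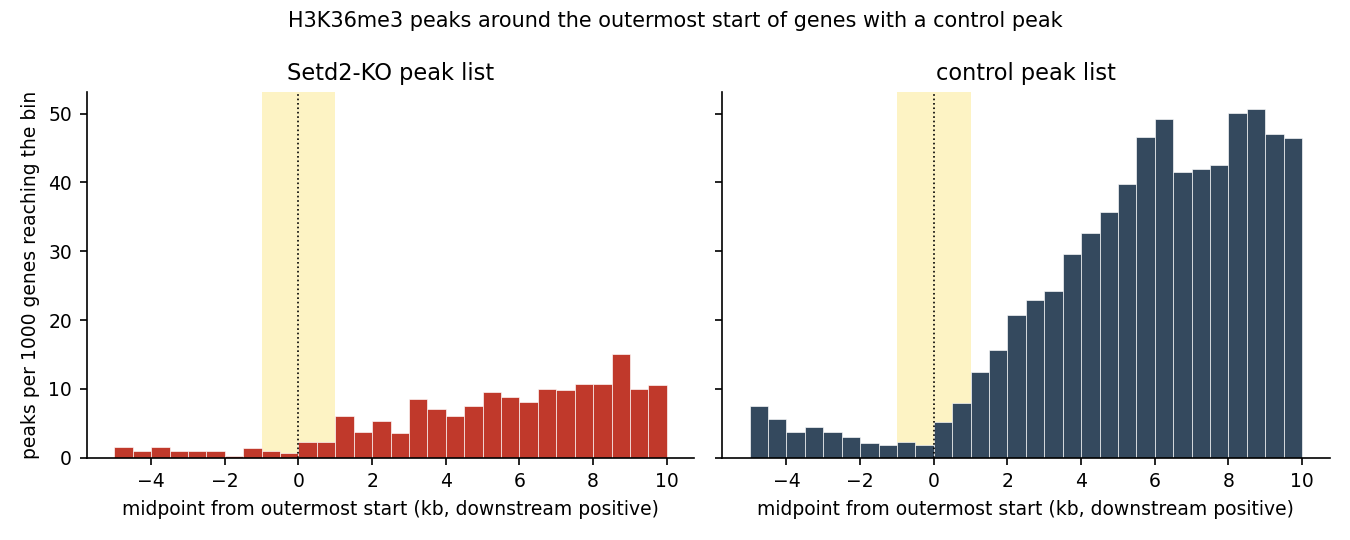
Peaks per 1000 genes that reach the bin (y axis) by distance of the midpoint from the outermost start (kb, x axis, 500 bp bins) for the 4281 genes with a control peak, Setd2-KO list on the left and control list on the right. Yellow marks 1 kb on either side of the start. In its upstream part both lists are low (0.70 in Setd2-KO and 1.87 in control just upstream). In its downstream part they are already higher (2.34 and 5.14 just downstream), and both increase along the gene.

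The share of internal starts with a peak varied with their distance into the gene. Among those genes, 0.584% of outermost starts had a Setd2-KO peak within 1 kb and 1.40% a control peak. For internal starts less than 1 kb from the outermost start the shares were close to these, 0.543% and 0.966%. At internal starts 1 to 2 kb along the gene they were 3.09% in Setd2-KO and 10.9% in control, and at 5 to 10 kb they were highest, 7.40% and 31.9%. In both lists internal starts close to the outermost start had about as few peaks as the outermost start itself. By position along the gene cut into 5 equal parts, the first part held 52.2% of internal starts but 6.37% of the Setd2-KO and 3.17% of the control internal-start peaks. The last part held 12.5% of the starts and 29.3% and 33.0% of the peaks. A peak within 1 kb of an outermost start could not count as internal, while the internal starts there were counted. The low share of peaks in the first part is thus partly set by the rule.

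Pooled over genes, peaks were denser near internal starts than in the rest of the gene bodies. Peaks and bases were summed over genes, so sites within 1 gene were not compared. In those 4281 genes the density was 25.2 Setd2-KO and 125 control peaks per Mb within 1 kb of internal starts. In the rest of the gene bodies it was 9.16 and 44.4 per Mb. The density was highest within 500 bp of internal starts and was lower further away, also beyond the limit of 1 kb. In the Setd2-KO list it was 25.2 per Mb within 250 bp, 29.5 at 250 to 500 bp, 23.1 at 750 to 1000 bp, 21.2 at 1000 to 1500 bp and 12.8 at 3000 to 5000 bp. The control list had 138, 135, 111, 88.1 and 66.1 per Mb at the same distances. Peaks just inside the limit, at 900 to 1000 bp, had median fold enrichments of 3.85 in Setd2-KO (39 peaks) and 3.83 in control (191 peaks), against 3.77 (57 peaks) and 3.83 (172 peaks) at 1000 to 1100 bp.

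Each internal-start peak was typed by all the starts within 1 kb of its midpoint. It was protein-coding if any of them was, and otherwise took the first type present of nonsense-mediated decay, retained intron and processed transcript. Retained intron was the most common type, at 226 of 504 Setd2-KO peaks (44.8%, 95% CI 40.6 to 49.2) and 1239 of 2435 control peaks (50.9%, 95% CI 48.9 to 52.9). No protein-coding transcript began within 1 kb of 345 Setd2-KO peaks (68.5%, 95% CI 64.3 to 72.4) and 1847 control peaks (75.9%, 95% CI 74.1 to 77.5). Among all 69503 internal starts annotated on these chromosomes, 51.8% had no protein-coding transcript. That share takes each start alone, while the peak shares take every start within 1 kb, so the measures differ. Control peaks with a protein-coding internal start within 1 kb were still called at 102 of 588 (17.3%, 95% CI 14.5 to 20.6), against 214 of 1847 without one (11.6%, 95% CI 10.2 to 13.1).

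Restricting the starts to the basic set left few internal peaks, although 31.9% of internal starts were of that set. Within 1 kb of such a start lay 56 Setd2-KO internal-start peaks and 91 control ones, of which 31 control peaks were still called (34.1%, 95% CI 25.2 to 44.3), against 12.2% of the 2344 without one. Zinc finger genes made part of that difference. Of the 91, 13 lay in zinc finger genes and 12 of these were still called, against 19 of 78 in other genes (24.4%, 95% CI 16.2 to 34.9).

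CpG content separated the kinds of start more than the lists. The observed to expected CpG ratio under the peak had a median of 0.607 in Setd2-KO and 0.397 in control PTECs at outermost starts, against 0.244 and 0.233 at internal starts and 0.206 and 0.211 away from starts. Without the peaks at high local background the outermost-start medians were 0.401 in Setd2-KO and 0.353 in control PTECs. Control peaks of the own-gene set had a median of 0.727, and those inside another coding gene 0.301. Outermost-start peaks within their own gene thus lay in CpG-richer sequence than those inside another gene.

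The strongest internal-start control peaks lay in Slc34a1, Midn, Slc27a2, Rsrp1 and Ddx5. Slc34a1, the main phosphate transporter of the proximal tubule, had 3 Setd2-KO peaks with fold enrichments of 6.89, 4.99 and 4.88, the first at chromosome 13, 55400408 to 55402078. They lay within 1 control peak of 5120 bp with a fold enrichment of 12 (55400116 to 55405235), the highest of the class. Midn, which encodes midnolin, had a fold enrichment of 5.75 in Setd2-KO (chromosome 10, 80149802 to 80151169) and 10.9 in control PTECs (80149721 to 80151173). Slc27a2, a very long-chain acyl-CoA synthetase of the proximal tubule, had 4.77 for the strongest Setd2-KO peak over its control peak of 10.0 (chromosome 2, 126553154 to 126557201). Ddx5, an RNA helicase, had 4.01 in Setd2-KO and 9.97 in control PTECs (chromosome 11, 106786685 to 106788258). All of these strongest control sites were still called, each with a lower fold enrichment. They were picked for a high control value, which by itself makes a lower Setd2-KO value likely. Over all 316 internal-start pairs the Setd2-KO value was lower at 59.8%.

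Zinc finger genes and Txnip filled the rest of the strongest Setd2-KO internal peaks. Txnip, which binds and inhibits thioredoxin, had a fold enrichment of 6.27 in Setd2-KO (chromosome 3, 96558714 to 96561189) and 9.62 in control PTECs. Zfp68 had 6.36 in Setd2-KO (chromosome 5, 138606054 to 138609647) and 8.78 in control PTECs. Zfp873 went the other way, with 6.63 for its strongest Setd2-KO peak (chromosome 10, 82060173 to 82061405) and 5.67 for the control peak over it. Zfp606 had 6.36 in Setd2-KO PTECs (chromosome 7, 12489408 to 12490348). The control peak over it had 6.64, and its midpoint lay further than 1 kb from every start. As a list, genes with a zinc finger symbol had 40 promoter-class peaks in Setd2-KO and 45 in control PTECs, and 22 of the 45 were still called (48.9%, 95% CI 35 to 63.0), against 13.6% (95% CI 12.3 to 15.0) of all promoter-class control peaks. The median fold enrichment of the list was 4.38 in Setd2-KO and 4.09 in control PTECs, beside 3.85 and 3.83 over all promoter-class peaks. Its 22 peaks stood among 342 promoter-class control peaks still called.

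In all, 172 internal-start Setd2-KO peaks overlapped no control peak. The strongest were at Lrif1 (5.44, chromosome 3, 106732086 to 106732499), Smarce1 (4.91, chromosome 11, 99212318 to 99212625), Glud1 (4.90, chromosome 14, 34329130 to 34329449), Plscr2 (4.78, chromosome 9, 92288389 to 92288784) and Zfp950 (4.77, chromosome 19, 61126480 to 61126951). Smarce1 is a subunit of the SWI/SNF remodeler and Glud1 the mitochondrial glutamate dehydrogenase. In the control list 2119 internal-start peaks had no Setd2-KO peak over them, and the strongest of these reached higher values. They were at Ttc36 (6.86, chromosome 9, 44800720 to 44802420), Tmbim6 (6.33, chromosome 15, 99405703 to 99406157), Rpl3 (6.28, chromosome 15, 80078982 to 80080622), Myo18a (6.20, chromosome 11, 77849414 to 77850479) and Ahctf1 (6.08, chromosome 1, 179757527 to 179757913). These genes encode a tetratricopeptide repeat protein, an inhibitor of cell death in the endoplasmic reticulum, a ribosomal protein, an unconventional myosin and a nuclear pore protein.

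Counted by gene, 29 genes had a peak at the outermost start in Setd2-KO and 71 in control PTECs, and 22 had one in both (75.9% of the Setd2-KO genes and 31.0% of the control genes). An internal start named 385 genes in Setd2-KO and 1477 in control PTECs, and 322 were named in both lists (83.6% and 21.8%). With a peak anywhere in the body, 1475 genes were in both lists (91.3% of 1615 Setd2-KO genes and 34.5% of 4281 control genes). By gene, both kinds of start lay below these shares. The body count takes a peak anywhere in the gene and the start counts only 1 kb, so the shares are not on equal terms. The interval of the control outermost share, 21.4 to 42.5%, also holds the 34.5%. Some genes with many annotated starts held many promoter-class peaks. In the Setd2-KO list the most promoter-class peaks were in Eif4g2, a translation initiation factor, with 6, and in Rbm5, Sptan1 and Atp5b with 5 each. In the control list Rbm5, a splicing regulator, had 10 such peaks with 5 still called, and Chd2, a chromatin remodeler, had 10 with 1 still called. Ubr4, a ubiquitin ligase, had 10 with 0 still called, Sptan1, the alpha chain of non-erythroid spectrin, had 9 with 4 still called, and Dync1h1, the dynein heavy chain, had 8 with 3 still called. Genes of similar count therefore differed in what was still called, beside 13.6% over all promoter-class control peaks. Whether single genes departed from that share was not tested.

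Of 222 genes with at least 3 promoter-class control peaks, 129 had none still called and 3 had all still called. Over all promoter-class control peaks 13.6% were still called, a share at which many genes with 3 such peaks would keep none. The genes with all still called were Atp5b with 4 of 4, Ccnl1, a cyclin that acts in splicing, with 3 of 3, and Ddx5 with 3 of 3. Eif4g2 had 5 of 6 still called, and Clk1, a kinase of splicing factors, 3 of 4.

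Most gene lists held few promoter-class peaks. Over all 20807 coding genes, 1.97% had one in Setd2-KO and 7.36% in control PTECs, and 13.6% of promoter-class control peaks were still called. Of 17 proximal tubule markers, 4 had a promoter-class peak in Setd2-KO and 6 in control PTECs, with 5 of 6 control peaks still called (83.3%, 95% CI 43.6 to 97.0), among them Miox with fold enrichments of 3.70 in Setd2-KO and 4.48 in control PTECs, and Hnf4a, whose control peak had 3.89. None of 20 markers of tubule segments beyond the proximal one, from the loop of Henle to the collecting duct, 8 of podocytes, 10 of fibroblasts and 10 of immune cells had a promoter-class peak in either list, and at the shares over all genes lists of this size would hold few or none. Of 10 endothelial markers only Egfl7 named any, with 0 in Setd2-KO and 4 in control PTECs. Peaks inside Egfl7 that were named for the start of Gm20532 are not counted there, among them the Setd2-KO peak of 4.26. A gene without a called peak may still be expressed, so these counts do not measure the cell makeup.

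The next lists are the machinery of the mark and of transcription. Among 24 enzymes and readers of H3K36 methylation, 3 genes had promoter-class peaks in Setd2-KO and 7 in control PTECs, with 2 of 16 control peaks still called (12.5%, 95% CI 3.50 to 36). Morf4l1, a chromodomain reader, had 4.0 in Setd2-KO and 4.30 in control PTECs at an overlapping site. Brpf1, a bromodomain and PWWP reader, had 4.11 in Setd2-KO with no control peak there. Dnmt3a, the DNA methyltransferase whose PWWP domain reads the mark, had 3.50 in Setd2-KO, over a control peak of 2.76 whose midpoint lay just beyond 1 kb from the start. Its strongest promoter-class control peak, of 4.48, lay elsewhere in the gene with no Setd2-KO peak over it. Among 26 genes of transcription elongation and of initiation within genes, 3 had such peaks in Setd2-KO and 13 in control PTECs, with 2 of 26 peaks still called (7.69%, 95% CI 2.14 to 24.1). In this list Cdk9, the kinase of the elongation factor P-TEFb, had a Setd2-KO peak of 4.31, and Polr2a, the largest subunit of RNA polymerase II, a control peak of 4.75 with no Setd2-KO peak.

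In metabolic and ribosomal genes the counts were too small to set apart from the 13.6% over all genes, which lay inside every interval. Of 9 promoter-class control peaks in TCA cycle genes 1 was still called, at Idh2, the mitochondrial isocitrate dehydrogenase, with a fold enrichment of 3.96 in control PTECs. A Setd2-KO promoter-class peak of 4.51 in the same gene overlapped no control peak. Of 8 in fatty acid oxidation genes, among them Eci2 and Cpt1a at 4.22 each, 0 were still called. Of 21 in cytosolic ribosomal protein genes 2 were still called (9.52%, 95% CI 2.65 to 28.9), and Rpl24 and Rpl13a had Setd2-KO peaks of 4.0 and 3.99. In sphingolipid and phospholipid synthesis, the pathway the study followed, 1 of 23 genes had a promoter-class peak. It was Lpcat3, a lysophospholipid acyltransferase, with 0 such peaks in Setd2-KO PTECs and 2 in control PTECs, the stronger at 3.96. Genes known for alternative promoters had 5 promoter-class control peaks in 4 of 29 genes, including Tpm1 at 4.53 and Trp53 at 3.69, with 1 still called.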

How the data were processed

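H3K36me3 ChIP and input libraries of Setd2-KO and control PTECs were grouped by their labels. In its replicate entry the reporting summary gives cysts and neoplastic masses of mice that overexpressed c-MYC, and in its data quality entry PTECs. The series text mentions another histone modification. The labels were followed.

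The submitters' processing notes name cutadapt 1.9.1, Trimmomatic 0.35 and FastQC for read trimming and quality, and Bowtie2 2.2.6 for mapping to GRCm38 (mm10). The authors called peaks with MACS2 2.1.1 in each ChIP library against its input and deposited 1 list per genotype. The deposited signal is the summit pileup, the number of extended fragments over it. The deposited fold enrichment is a ratio, the pileup plus 1 over the local background plus 1. The deposited −log10 p and −log10 q values compare ChIP with input at that peak. The p-values of the caller are no test between genotypes. Which filter the authors used for the deposited lists is unclear. The methods give a p-value cutoff, and the reporting summary an FDR limit together with 5-fold enrichment. The deposited fold enrichment goes down to 1.20 in Setd2-KO and 1.52 in control, so the lists were not cut at 5 on this value. Read totals were not used here.

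Peaks on chromosomes 1 to 19 were placed by their midpoint with GENCODE M21, an outermost start taking precedence over an internal one. Local background was recovered from pileup and fold enrichment and called high from 2 times the genome-wide value. Shares carry 95% Wilson intervals. Of the listed gene symbols, 5 matched no coding gene on these chromosomes. Analyses used Python 3.11.15, pandas 2.3.3 and pysam 0.24.0, and the code was tested on simulated peaks.

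The members, gene lists and tests were chosen with earlier results of these data known. Named peaks are the 5 of highest fold enrichment per list and kind of start, the same among peaks absent from the other list, the 5 genes with most promoter-class peaks or the largest share still called, and up to 3 members per gene list and peak list. Complete sets of outermost-start genes were named after their values were seen. A few items that these rules name are not reported here.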

Additional observations from a re-analysis of the deposited data

How the results depend on the processing

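Of 140 values recomputed over 13 results and 13 alternative settings, 84 stayed within the spread allowed and 56 moved. The Setd2-KO to control ratio of promoter-class peaks ranged from 0.188 to 0.503, and the share of control peaks still called was higher at outermost than at internal starts in 11 of 12 settings. The exception was the GENCODE basic set, which also turned the order of the Setd2-KO to control ratios (0.372 at outermost and 0.613 at internal starts). No paired analysis was possible because each genotype had 1 ChIP library.

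With basic transcripts only, promoter-class peaks numbered 86 in Setd2-KO and 171 in control (ratio 0.503), the outermost share was 33.7% and 45.6%, and the median fold enrichment 3.91 and 3.96. Overlap with control was 84.9% of Setd2-KO peaks, and 32.7% of control peaks were still called, 34.4% of those at internal starts. With protein-coding transcripts only, the counts were 189 and 664 (ratio 0.285), the outermost share 14.8% and 10.8%, the overlap 75.7%, and 19.1% of control peaks were still called, 17.6% at internal starts.

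With a midpoint limit of 500 bp there were 310 Setd2-KO and 1447 control peaks, 15 and 32 genes with an outermost-start peak, and a control outermost share of 2.14%. With 2 kb there were 890 and 4045 peaks, 78 and 218 genes, and outermost shares of 9.33% and 6.08%. With any base of the peak within 1 kb, 48 Setd2-KO and 129 control genes had a peak at the outermost start.

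At a −log10 q of at least 10 there were 80 Setd2-KO and 398 control peaks, with outermost shares of 15.0% and 9.30%, medians of 4.77 and 4.75, and 10.8% of internal-start control peaks still called. At a fold enrichment of at least 5 there were 26 and 138 peaks (ratio 0.188), outermost shares of 11.5% and 9.42% and medians of 5.44 and 5.33, with 10.1% of control peaks still called and 8.80% at internal starts.

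Asking for overlap by at least 50% of the shorter peak gave 59.3% of Setd2-KO peaks and 11.5% of control peaks shared, 11.0% at internal starts. Allowing a gap of 1 kb gave 84.3% and 23.1%, with 45.8% at outermost and 22.3% at internal starts. Without outermost-start peaks inside another coding gene the outermost share was 3.82% in Setd2-KO and 1.62% in control. The alternative without peaks at high local background was added after seeing the data. The cause of these movements was not tested beyond the smaller or larger set each setting takes. With 1 library per genotype, lists limited to called peaks and 31 Setd2-KO peaks at outermost starts, differences between kinds of start rest on small counts, and a site without a peak can hold signal under the limit.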
